A study of Mus musculus with 15 samples.

Results

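Lung gene expression was compared between female Crlj:CD1(ICR) mice fed 500 ppm permethrin and female mice of the same stock fed 20 ppm permethrin. The feeding lasted 7 days, the mice were 11 weeks old, and each diet was represented by 3 arrays that the labels call biological replicates, each taken here as 1 mouse. The comparison used these 6 arrays of the 15 in the study, which also had control, 2500 ppm and 5000 ppm diets with 3 arrays each, and no control array entered it. The members were chosen by their titles, with earlier results of these data known. The question is how the lung at the higher of these doses differs from the lung at the lower one. Both groups received permethrin in powdered diet, the stock is outbred, and no transgene or induced allele is named in the labels.

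Permethrin is a pyrethroid insecticide that holds voltage-gated sodium channels open, and esterases and cytochrome P450 enzymes break it down. In rodent liver, xenobiotics of this kind can activate the nuclear receptors CAR and PXR, whose targets include Cyp2b10, and electrophilic stress activates Nrf2, whose targets include Nqo1 and the glutathione S-transferases. In the mouse airway, club cells carry most of the P450 activity of the lung, alveolar type 2 cells make surfactant, and ciliated and mucous cells line the conducting airways. RNA came from lung tissue, and in such bulk RNA fewer cells of a type and less RNA per cell cannot be told apart.

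The 6 arrays were 1-colour Agilent arrays, and a level is given throughout as the log2 processed signal minus the 75th percentile of the same array, so that 0 is that percentile and 1 unit is a factor of 2. A difference is the mean level at 500 ppm minus the mean level at 20 ppm. Of 56605 probes, 41343 were well above background on all 3 arrays of either diet and were tested, and they represented 18686 named genes and 14238 probes with no gene name. Of the 6 arrays 5 shared 1 slide, and 500 ppm mouse 3 lay on the other slide. That array was 1 of 2 among the 15 that the scanner software marked for review, its negative controls averaged 47.6 against 33.8 to 34.7 on the other 5 arrays compared, and 87.0% of its probes were well above background against 70.7% to 81.5%. Its correlations with the other 5 ran from 0.931 to 0.960, it held 39.4% of the spread within the groups, and 20 ppm mouse 1 held 17.3%, with correlations of 0.966 to 0.973 with the other 4. Markers of lung were strong on all 6 arrays: surfactant protein C (Sftpc) lay between 9.11 and 9.52 and the club cell protein Scgb1a1 between 9.17 and 9.83.

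No probe passed the adjusted threshold of 0.05 in either direction (0% of 41343 higher and 0% lower, limma with Benjamini-Hochberg adjustment), and the smallest adjusted p was 0.903. At an unadjusted p under 0.05 there were 1399 probes (3.38%), fewer than the 2067 that chance alone would give, of which 1079 (2.61%) were higher at 500 ppm and 320 (0.774%) lower. The 3 mice of one diet all lay above the 3 of the other for 8.04% of probes in the higher direction and 3.71% in the lower, and for 7.47% and 3.15% of named genes. The typical difference was small beside its error: the median 95% interval reached 0.60 to either side, and 1700 probes differed by at least 1, of which 734 had groups that did not overlap. Without 500 ppm mouse 3 the test again called no probe, the smallest adjusted p was 0.186 and 1602 probes (3.87%) had an unadjusted p under 0.05. Among named genes the mice did not overlap for 13.4% in the higher direction and 7.47% in the lower once that array was left out.

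The median difference was largest among dim probes, and there it went with 500 ppm mouse 3. Over all tested probes the median difference was 0.12, and it was 0.04 without that array. Probes were grouped by mean level over the 5 arrays other than 500 ppm mouse 3. Part of that array's excess in the dim classes can therefore come from the grouping, and how much was not tested. For probes with a mean level under -4 the median difference was 0.59 with the array and 0.01 without it. For probes at 2 and above it was 0.06 and 0.11. More probes lay wholly higher than wholly lower at brighter levels too, 10.4% against 6.09% between -1 and 0 and 8.66% against 5.62% between 0 and 2. In the lowest class the array read 1.77 above the other 500 ppm mice. The faint spike-in controls, added RNA whose amount is the same on every array, showed the same thing: the faintest read -2.89 in 500 ppm mouse 3 and between -5.01 and -4.83 on the other 5 arrays. The scale matters for signs as well, since centring on the median of each array in place of the 75th percentile moved the median difference of all probes to -0.13.

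**Figure D1:**
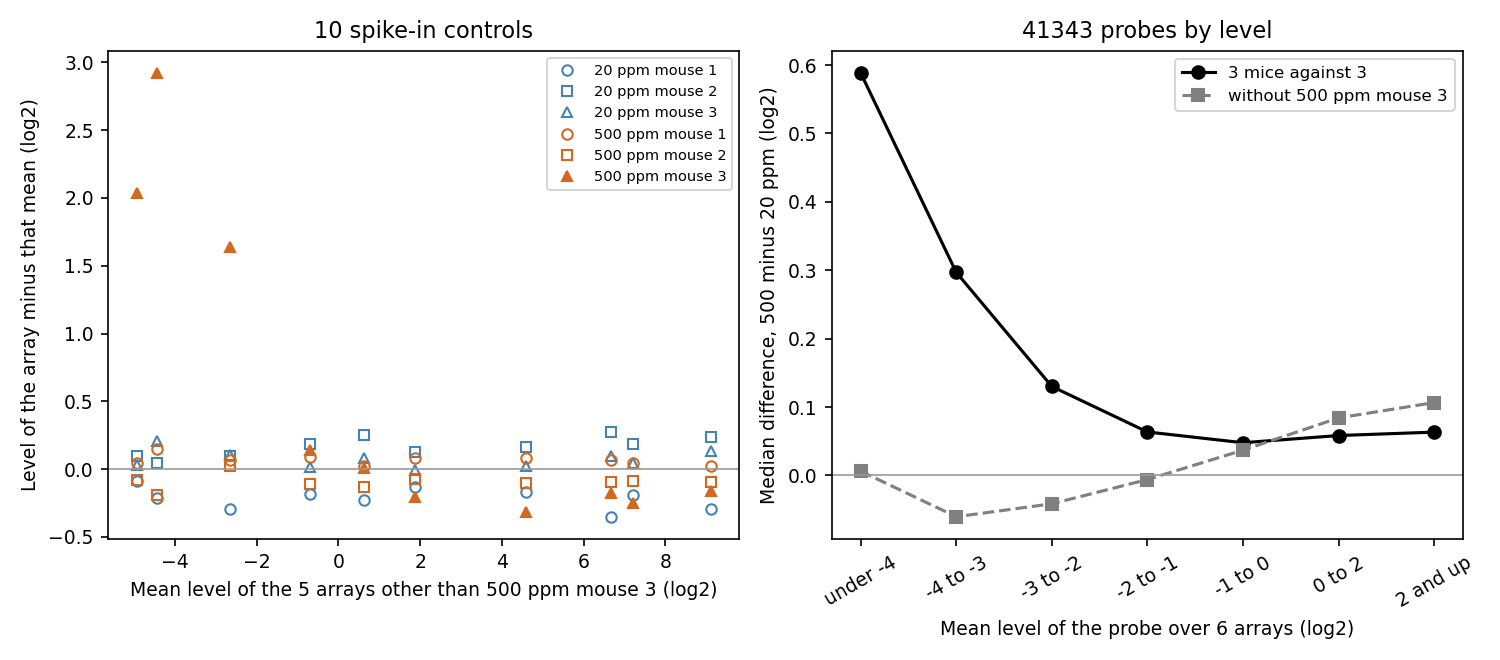
Left, level of 10 spike-in controls on each of the 6 arrays minus the mean of the 5 arrays other than 500 ppm mouse 3, against that mean (log2); the 3 faintest controls of 500 ppm mouse 3 stand apart. Right, median difference between the diets (500 minus 20 ppm, log2) for probes grouped by mean level, which reaches 0.59 in the dimmest class with that array and 0.01 without it. The grouping used the 5 arrays other than 500 ppm mouse 3, although the axis label says 6.

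Cwc22 had the smallest p of any named gene. Its product is a splicing factor that brings the helicase eIF4A3 to the spliceosome, where the exon junction complex is then laid down on the mRNA. The brightest Cwc22 probe read 3.46, 1.96 and 2.92 in the 20 ppm mice and -0.69, -0.69 and -0.43 in the 500 ppm mice. The groups were far apart, with every 500 ppm mouse more than 2 units below the lowest 20 ppm mouse. The difference was -3.39 ± 0.39 (SE), or 10.5-fold lower at 500 ppm, with an unadjusted limma p of 0.000107 and an adjusted p of 0.903. Without 500 ppm mouse 3 it was -3.47. With arrays centred on their medians the limma adjusted p of this probe was 4.32e-10, in a fit whose error was shared among probes with a prior of 132 degrees of freedom in place of 2.16, so the call depends on that setting.

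Both other tested probes for Cwc22 lay lower at 500 ppm as well. The second probe read 1.78, 0.38 and 1.36 at 20 ppm and -1.70, -1.75 and -0.94 at 500 ppm, a difference of -2.64 ± 0.42. The third and dimmest read -1.29, -3.13 and -1.72 against -3.91, -4.37 and -2.53, a difference of -1.55 ± 0.65 in which 500 ppm mouse 3 lay above 20 ppm mouse 2. With the other diets beside them, the brightest probe averaged 2.03 ± 0.55 (SD, n = 3) in controls, -0.79 ± 0.16 at 2500 ppm and 0.01 ± 0.97 at 5000 ppm, where 1 mouse read 1.13 and the others -0.56 and -0.54. The control mice thus ranged with the 20 ppm mice on this probe and the 2500 ppm mice with the 500 ppm mice. All 2500 ppm and 5000 ppm arrays and 500 ppm mouse 3 were on the second slide, and 500 ppm mice 1 and 2, on the first slide with the control and 20 ppm mice, read -0.69 each.

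**Figure D2:**
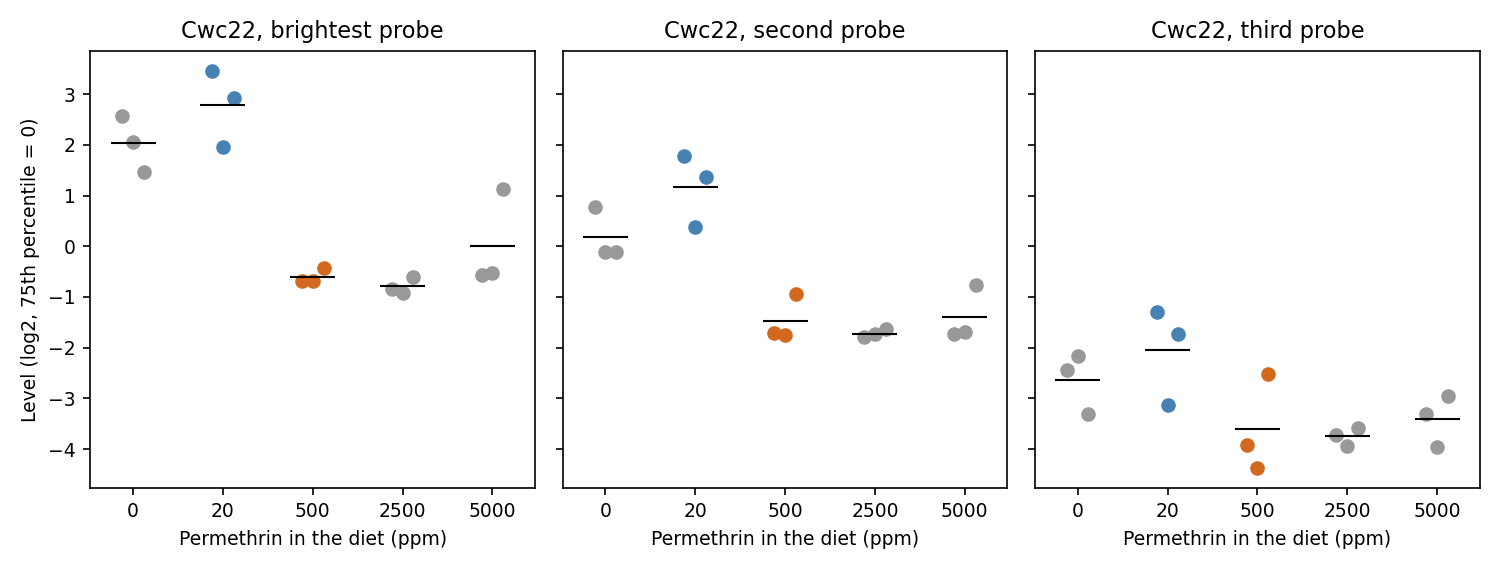
Level of the 3 tested Cwc22 probes (log2, 75th percentile of the array = 0) against dietary permethrin (ppm), 1 point per mouse with the group mean as a bar. On the brightest probe the 20 ppm mice read 1.96 to 3.46 and the 500 ppm mice -0.69 to -0.43.

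The Cwc22 promoter is shown because this gene had the smallest p among named genes. The 250 bases before its RefSeq start lie on the minus strand of GRCm38.p6 at chr2:77946357-77946606 and are printed 5′ to 3′ with each CG dinucleotide in capitals, a motif that reads the same on both strands.

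Cwc22: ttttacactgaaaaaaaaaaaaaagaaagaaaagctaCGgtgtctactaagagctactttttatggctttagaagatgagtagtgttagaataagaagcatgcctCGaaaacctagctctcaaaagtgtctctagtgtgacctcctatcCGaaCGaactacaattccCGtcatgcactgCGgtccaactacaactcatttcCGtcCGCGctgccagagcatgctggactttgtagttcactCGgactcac

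The window held 10 CG dinucleotides and its GC content was 42.8%. Of 32851 mouse promoters of the same length in RefSeq, 37.8% held as many or more, and their median was 6. The arrays carried no measurement of the promoter itself.

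The other genes of the same pathway had no common direction. The list of exon junction complex and spliceosome partners had 24 tested members with Cwc22 counted among them, 12 above 0 and 12 below, and a median of 0.00 beside 0.09 for all named genes. Of the 24, 2 had 500 ppm mice all above the 20 ppm mice and 1, Cwc22 itself, all below. The backgrounds for named genes were 7.47% in the higher direction and 3.15% in the lower. Acin1, which encodes a component of the complex that binds next to its core, read 2.46, 2.48 and 2.28 at 20 ppm and 3.16, 3.05 and 2.92 at 500 ppm, a difference of 0.63 ± 0.16. Eif4a3, the helicase that Cwc22 escorts, read 0.71, -1.54 and -1.26 at 20 ppm and -1.76, -1.78 and -1.33 at 500 ppm. Its difference of -0.92 ± 0.60 was carried by 20 ppm mouse 1, and the groups overlapped.

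Some probes with no gene name had differences as large as that of Cwc22, and they were picked out after their values were seen. The probe for the cDNA AK145290 read -2.99, -3.80 and -3.45 at 20 ppm and was not well above background in any 500 ppm mouse, where it read -7.37, -7.25 and -6.48. Set against the dimmest signal that counts as detected, it was at least 2.84-fold lower at 500 ppm. Its unadjusted limma p of 2.68e-05 was the smallest in the comparison, and its adjusted p was the 0.903 that it shared with Cwc22.

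The probes named NAP103337-1 and TC1586156 gave the widest differences of this group. NAP103337-1 read 1.95, -0.43 and 0.93 at 20 ppm and -4.20, -4.75 and -3.07 at 500 ppm, a difference of -4.82 ± 0.70. TC1586156 read 1.49, -0.65 and 0.52 against -4.74, -4.49 and -3.01, a difference of -4.53 ± 0.68. On both probes 20 ppm mouse 2 was the lowest of its group, as it was for Cwc22, and the groups did not overlap. Control mice averaged 0.08 ± 0.59 (SD, n = 3) on NAP103337-1 and 2500 ppm mice -4.01 ± 0.33, the same order as for Cwc22. LF199796, a bright probe, differed by -2.47 ± 0.32, LF196875 by -1.98 ± 0.32, and AK143352 by -2.44 ± 0.35. A probe for a transcript at chr19:53624826-53625580 of mm9, minus strand, read -2.75, -2.76 and -2.57 at 20 ppm and -3.98, -4.42 and -4.11 at 500 ppm, a difference of -1.48 ± 0.18. Of the 5000 ppm mice, mouse 3 read highest on AK145290 (-4.03), NAP103337-1 (-1.13) and TC1586156 (-1.76), as on the brightest Cwc22 probe. It was also highest on LF199796, LF196875 and AK143352, and lowest on the chr19 probe at -6.80. Whether these probes and Cwc22 vary independently of each other was not tested. What these transcripts encode is not given in the sources used here.

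The 12 named genes with the smallest unadjusted p in the higher direction were taken from those whose groups did not overlap. They had differences of 0.78 to 2.79 and an adjusted p of 0.903 each, so none is called changed. Apol7c, of the apolipoprotein L family, differed most. It read -4.52, -5.21 and -3.38 at 20 ppm, where 2 of 3 arrays were well above background, and -1.91, -0.97 and -1.86 at 500 ppm. The difference was 2.79 ± 0.51, or 6.91-fold. Controls ranged from -4.42 to -1.93 and 5000 ppm mice from -4.80 to -1.38, so single mice on other diets read as high as the 500 ppm group.

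Genes of protein folding and chromatin were among the other 11. Pfdn1, a subunit of the prefoldin chaperone that hands actin and tubulin to their folding machine, read 2.30, 2.04 and 2.07 at 20 ppm and 2.94, 3.07 and 3.00 at 500 ppm, a difference of 0.86 ± 0.16. Dnajc2, a chaperone that binds ribosomes, read 0.64, 0.18 and -0.11 against 1.51, 1.51 and 1.26, a difference of 1.19 ± 0.24. Groups without overlap were a condition of choice for these genes. Ino80b, a subunit of the INO80 chromatin remodeller, read 1.03, 0.98 and 0.93 against 1.72, 1.79 and 1.76 and differed by 0.78 ± 0.14 on its brighter probe. Its dimmer probe differed by 0.23 ± 0.41 and overlapped. Without 500 ppm mouse 3 that probe differed by -0.24, with the other 500 ppm mice below every 20 ppm mouse. Zfp157, which encodes a zinc finger protein, read -0.06, -0.17 and -0.02 against 0.74, 0.78 and 0.68.

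Trp53 and Dact2 are both brakes, on cell division and on signalling. Trp53, the p53 tumour suppressor, read -0.43, -0.55 and -0.73 at 20 ppm and 0.55, 0.14 and 0.41 at 500 ppm, a difference of 0.94 ± 0.18. Dact2, an inhibitor of Wnt and Nodal signalling, read -0.89, -1.04 and -1.10 against -0.07, -0.30 and -0.25. The p53 target list did not follow Trp53: 12 of its 20 tested members lay above 0. Groups did not overlap for 2 of them, both higher, beside a background of 7.47%. The median was 0.04, or -0.21 with arrays centred on their medians and -0.12 without 20 ppm mouse 1.

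Membrane traffic, the centrosome and retinoid metabolism supplied the rest. Rab15, a GTPase of endosome recycling, read 2.65, 2.63 and 2.46 against 3.83, 3.30 and 3.73, a difference of 1.04 ± 0.20 on its brighter probe and -0.06 ± 0.24 on its dimmer one. Cmtm4, a membrane protein that keeps PD-L1 from being degraded, differed by 1.02 ± 0.19. Cep57, a centrosome protein, differed by 0.84 ± 0.17 on its brighter probe and by 0.11 ± 0.22 on the dimmer. Dmrt2, a transcription factor of the doublesex family, differed by 0.91 ± 0.15 and Dhrs9, a dehydrogenase of retinol and steroids, by 1.06 ± 0.19. For Pfdn1, Ino80b and Cmtm4 the 2500 ppm and 5000 ppm mice read near the 500 ppm mice and the controls were split. Pfdn1 averaged 3.03 ± 0.10 (SD, n = 3) at 2500 ppm and 2.99 ± 0.06 at 5000 ppm, while the controls read 2.14, 3.27 and 3.02. Control mouse 1 thus lay within the 20 ppm range of Pfdn1, and at 0.70 for Ino80b and 0.80 for Cmtm4 it lay below every 20 ppm mouse, whereas the other controls were near the 500 ppm mice. Dact2, Dnajc2 and Cep57 had the same split. Control mouse 1 lay within the 20 ppm range and the other controls near the 500 ppm mice. Cep57, on its brighter probe, read -1.11 in control mouse 1 and -0.32 and -0.33 in the other controls. For Zfp157 and Trp53 control mouse 2 lay between the 20 ppm and 500 ppm mice. Apol7c, Rab15, Dmrt2 and Dhrs9 did not have this split. Its cause was not tested. No test of the control, 2500 ppm and 5000 ppm diets was made.

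Veph1 showed how probes of 1 gene can disagree, and it too was picked after its values were seen. Its brightest probe, which the naming rule uses, read 0.76, 1.09 and 1.18 at 20 ppm and 1.16, 1.33 and 0.53 at 500 ppm. A dimmer probe of the same gene read -1.09, -0.83 and -0.71 against 0.38, 0.32 and 0.63, a difference of 1.32 ± 0.18 and 2.5-fold. The groups overlapped on the first probe and were apart on the dimmer one.

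**Figure D3:**
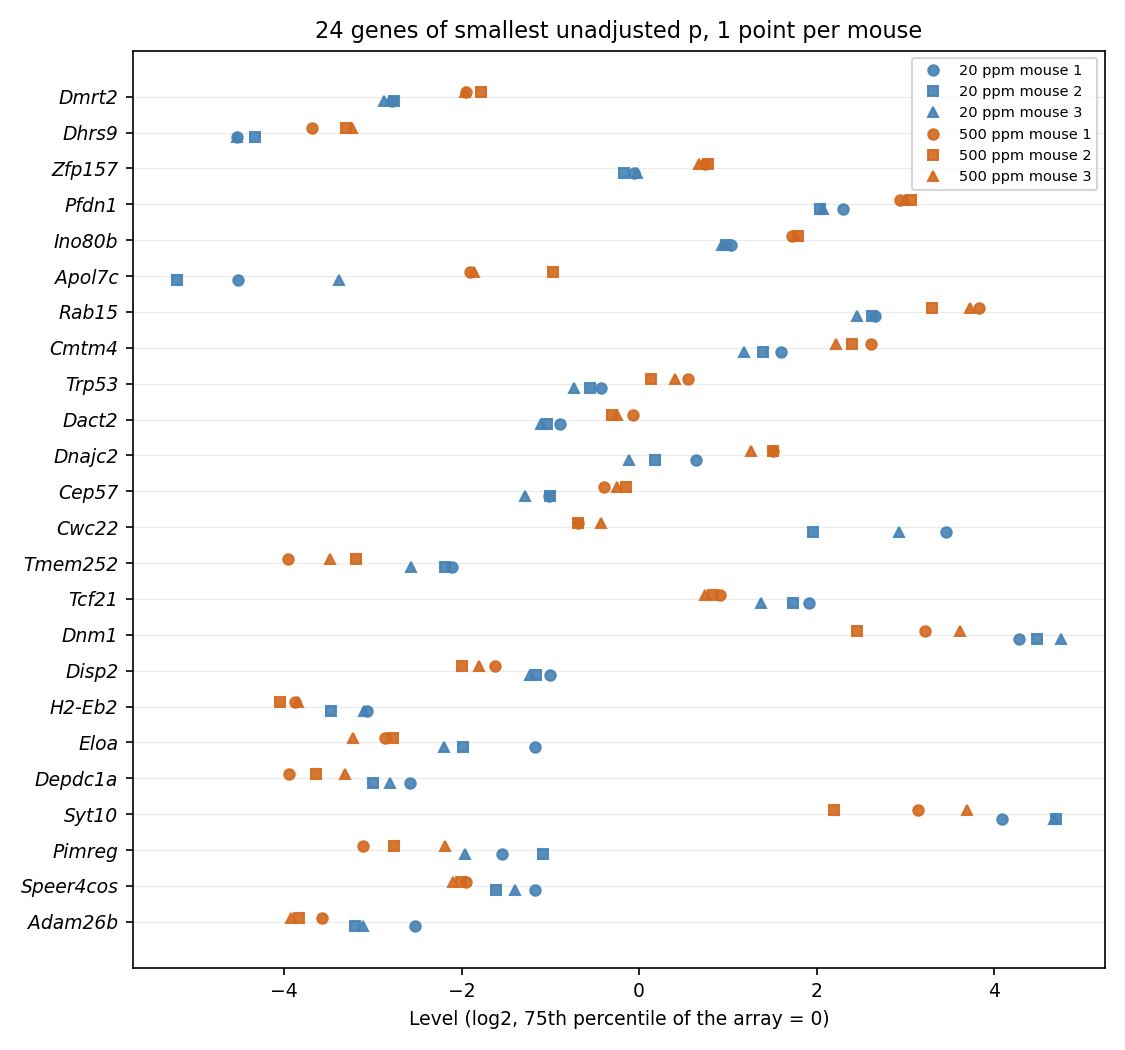
Level of the 24 named genes of smallest unadjusted p (log2, 75th percentile of the array = 0), 12 higher and 12 lower at 500 ppm, 1 point per mouse. Groups do not overlap by the rule of choice; Cwc22 and Apol7c have the widest gaps, and differences of the others run from -1.47 to 1.19.

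In the lower direction the remaining 11 genes differed by -1.47 to -0.62, each with an adjusted p of 0.903. Syt10, a synaptotagmin that senses calcium in vesicle release, read 4.09, 4.69 and 4.67 at 20 ppm and 3.14, 2.19 and 3.70 at 500 ppm, a difference of -1.47 ± 0.41. Dnm1, the dynamin that pinches off synaptic vesicles, read 4.28, 4.48 and 4.75 against 3.23, 2.45 and 3.61, a difference of -1.41 ± 0.33. In both genes 500 ppm mouse 2 was the lowest and mouse 3 the highest of its group. Controls averaged 3.47 ± 0.06 (SD, n = 3) for Syt10 and 3.39 ± 0.14 for Dnm1, so the 20 ppm mice read above both neighbouring diets. The dimmer probes overlapped between the diets, with differences of 0.44 ± 0.65 for Syt10 and -0.06 ± 0.34 for Dnm1.

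Tcf21, a transcription factor of lung mesenchyme and lipofibroblasts, read 1.92, 1.73 and 1.37 at 20 ppm and 0.91, 0.84 and 0.74 at 500 ppm, a difference of -0.84 ± 0.19. The fibroblast and matrix list to which it belongs had 25 tested members, 17 below 0, and a median of -0.08. Groups did not overlap for 2 of them, both lower and among them Tcf21, beside a background of 3.15%. Genes of mitosis were also in this set: Pimreg read -1.55, -1.09 and -1.96 against -3.12, -2.76 and -2.19, and Depdc1a read -2.58, -3.0 and -2.81 against -3.94, -3.64 and -3.32. Groups without overlap were a condition of choice for both, and the dimmer Depdc1a probe overlapped. Eloa, the elongin subunit that speeds RNA polymerase II, differed by -1.17 ± 0.31 and Tmem252 by -1.26 ± 0.26. Disp2, of the dispatched family, differed by -0.68 ± 0.17 and H2-Eb2, an MHC class II beta chain, by -0.71 ± 0.18. Adam26b, of the ADAM family, and Speer4cos differed by -0.83 ± 0.24 and -0.62 ± 0.18. The split of the controls described for Pfdn1 was also seen for Tcf21, Eloa and Speer4cos. Control mouse 1 read 1.73 on Tcf21 against 0.88 and 0.86 in the other controls. On Eloa it read -0.84 against -2.92 and -2.98. For Adam26b control mouse 2 lay between the 20 ppm and 500 ppm mice. Cwc22, Tmem252, Dnm1, Disp2, H2-Eb2, Depdc1a, Syt10 and Pimreg did not have this split.

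Genes of the cell cycle lay lower at 500 ppm more often than higher. Of 42 tested members, 34 were below 0, the median was -0.20 beside 0.09 for all named genes, and 9 had 500 ppm mice all below the 20 ppm mice while none had them all above. The background for named genes was 3.15% in the lower direction. None passed the adjusted threshold. Without 500 ppm mouse 3 the median was -0.32 and 20 of 42 lay wholly below, beside a background of 7.47%. The median was below 0 under each of the 19 other settings tried, not all of which could change it. It ran from -0.45 to -0.11, the latter without 20 ppm mouse 2.

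Single cell cycle genes give the size of it. Mki67, the proliferation antigen Ki-67, read 0.71, 1.04 and 0.69 at 20 ppm and 0.20, 0.25 and 0.58 at 500 ppm, a difference of -0.47 ± 0.19. Top2a, which untangles replicated DNA, read -1.03, -0.87 and -1.49 against -1.95, -1.57 and -1.56, and Ccna2, cyclin A2, read -1.34, -0.66 and -1.35 against -1.85, -1.59 and -1.89. In each of these genes 20 ppm mouse 2 was the highest mouse and no 500 ppm mouse reached the 20 ppm range. Prc1, which bundles the microtubules of the spindle midzone, differed by -0.54 ± 0.24 and Birc5, survivin, by -0.39 ± 0.18. Pcna, the sliding clamp of replication, differed by 0.00 ± 0.16, so not every proliferation gene followed. Ccnd1, cyclin D1, differed by -1.07 ± 0.48, but 20 ppm mouse 1 at 3.51 stood apart from the 1.81 and 1.87 of the other two.

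Erythroid and platelet genes leaned the same way, with 12 of 17 below 0 and a median of -0.24. Of the 17, 1 lay wholly below and 1 wholly above. These counts stand beside backgrounds of 3.15% lower and 7.47% higher. The median was -0.06 without 20 ppm mouse 1 and -0.13 without either 20 ppm mouse 3 or 500 ppm mouse 2. It was -0.45 without 500 ppm mouse 3, when 7 of 17 lay wholly below beside a background of 7.47%. Hbb-b1, an adult beta globin, read 6.12, 5.06 and 5.57 at 20 ppm and 4.45, 4.10 and 4.94 at 500 ppm, a difference of -1.09 ± 0.35. Globin genes are near-identical copies, and how a probe divides its signal among them is not known here.

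Immune gene lists gave unlike values. Of 24 tested T cell genes 23 lay above 0, 7 had 500 ppm mice all above the 20 ppm mice beside a background of 7.47%, and the median was 0.36. Cd8b1, a chain of the CD8 co-receptor, read -0.71, -0.36 and 0.28 at 20 ppm and 0.81, 0.79 and 0.94 at 500 ppm, a difference of 1.11 ± 0.27. Icos, a co-stimulatory receptor of activated T cells, read -0.64, -0.46 and -0.43 against 0.05, -0.02 and 0.07. Both separated the diets, whereas Cd3e and Cd3d, chains of the T cell receptor complex, overlapped with differences of 0.30 ± 0.25 and 0.35 ± 0.27. The list's median rested in part on 20 ppm mouse 1, the lowest of its group for all 4 of these genes, and was 0.16 without it.

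Natural killer and cytotoxic genes had the same median of 0.36, with 18 of 20 above 0. Of the 20, 1 lay wholly above, beside a background of 7.47%. Without 20 ppm mouse 1 the median was -0.06. Klrb1c, the NK1.1 receptor, read -0.88 in that mouse and 0.72 and 0.66 in the other two, against 0.56, -0.12 and 0.97 at 500 ppm. Xcl1, a chemokine of activated lymphocytes, was the gene that did not overlap, at -2.80, -2.74 and -2.75 against -2.45, -2.22 and -1.78. Among 28 inflammatory cytokine and chemokine genes 24 lay above 0, with 4 wholly above beside a background of 7.47% and a median of 0.27, or 0.07 without 20 ppm mouse 1. Ccl2, which recruits monocytes, read -0.58, -1.21 and -0.63 against -0.05, 0.11 and -0.45 and differed by 0.67 ± 0.25.

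MHC class II genes included the widest difference among the immune lists. H2-Eb1, a class II beta chain, read 6.95, 5.58 and 6.22 at 20 ppm and 5.55, 1.79 and 1.82 at 500 ppm, a difference of -3.20 ± 1.07. Mice 2 and 3 at 500 ppm were far below the rest, and mouse 1 lay just under the lowest 20 ppm mouse. H2-Ab1, another class II beta chain, read 7.06, 6.47 and 7.05 against 6.19, 6.43 and 6.33 and differed by -0.54 ± 0.22, and Cd74, the invariant chain that loads with class II, differed by -0.38 ± 0.19. H2-Aa, a class II alpha chain, differed by -0.01 and ran from -0.31 to 0.23 over the 19 other settings. The dendritic cell and class II list as a whole had 9 of 19 above 0 and 10 below, with a median of -0.01. H2-DMa, which exchanges class II peptides, read 1.65, -1.54 and -1.20 against -1.87, -1.97 and -1.07. Its difference of -1.27 ± 0.86 was -0.26 without 20 ppm mouse 1, and H2-DMb1, the chain it pairs with, went the other way in that mouse at 1.24 beside 4.07 and 3.57.

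Several other genes owed part of their difference to the same mouse. On the array of 20 ppm mouse 1, 494 of 18681 genes with values on all 6 arrays read at least 1 above every other array and 101 at least 1 below. At mean levels of 0 and up these counts were 124 and 58 of 9505. Lyz2, the lysozyme of macrophages and type 2 cells, read 4.48 there and 2.76 and 2.55 in the other 20 ppm mice, against 2.18, 2.0 and 2.39 at 500 ppm. The difference was -1.07 ± 0.52, and -0.47 without that mouse. Napsa, the aspartic protease that processes surfactant proteins, read 3.75 there against 1.94 and 1.86, and 1.53, 0.98 and 1.40 at 500 ppm. For both genes the groups did not overlap, with that mouse or without it. Control mouse 1 also read apart from the other controls on Lyz2, at 4.97 against 2.40 and 2.33. The same held for H2-DMa, at 1.41 against -1.80 and -2.31. On Gsta2, where 20 ppm mouse 1 read lowest, control mouse 1 did not, at -0.35 against -0.41 and -0.42.

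The 4 lung epithelial identity genes that the naming rule always took differed little, which does not hold for every member of the epithelial lists. Scgb1a1 differed by -0.01 ± 0.22, Sftpc by -0.10 ± 0.18, the club cell P450 Cyp2f2 by 0.06 ± 0.25 and Foxj1, the master factor of motile cilia, by -0.10 ± 0.21. With these intervals a difference of more than 0.66 in either direction lies outside the 95% range for each of the 4. Alveolar type 2 genes had 17 of 20 below 0, 4 of them wholly below beside a background of 3.15%. Their median was -0.14 and was negative in every setting tried, not all of which could change it. Their differences ran from -1.21 for Napsa to 0.11. Sftpa1, surfactant protein A, read 7.37, 7.38 and 7.31 at 20 ppm and 7.23, 7.10 and 7.01 at 500 ppm, a difference of -0.24 ± 0.15.

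Ciliated cell genes had 22 of 25 above 0, 4 wholly above beside a background of 7.47% and a median of 0.22, which turned to -0.02 when arrays were centred on their medians. Spag17, of the central pair of the axoneme, read -1.74, -1.85 and -1.90 against -1.56, -1.18 and -1.04 and differed by 0.57 ± 0.19. Meig1 differed by 0.40 ± 0.19 and Cfap126 by 0.41 ± 0.20, both without overlap. Endothelial and lymphatic genes were mixed, with 10 of 24 above 0 and 14 below, 2 wholly above and 4 wholly below beside backgrounds of 7.47% and 3.15%, and a median of -0.17, or -0.05 without either 20 ppm mouse 2 or 20 ppm mouse 3. Flt4, the lymphatic VEGF receptor, read -2.58, -2.86 and -3.01 against -3.54, -3.48 and -3.14. Pecam1, a junction protein of endothelium, differed by -0.80 ± 0.47, with 20 ppm mouse 1 at 1.19 and the other two at -0.42 and -0.44.

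Mucous cell and type 2 inflammation genes had a median of 0.59 over 12 tested members, 10 of them above 0 and 3 wholly above beside a background of 7.47%, and 0.33 without 500 ppm mouse 3. Itln1, intelectin of goblet cells, read -2.0, -2.38 and -2.79 at 20 ppm and -1.52, -0.62 and -1.54 at 500 ppm, a difference of 1.17 ± 0.34. Spdef, the factor that drives goblet cell differentiation, read -0.03, -0.13 and -0.15 against 0.01, 0.30 and 0.25. These 2 genes did not overlap. Agr2, a disulfide isomerase that folds mucins, read -2.68, -2.67 and -3.04 against -2.91, 0.23 and -1.09, a difference of 1.53, the widest of those named from this list, in which 500 ppm mice 2 and 3 lay above the 20 ppm mice and mouse 1 within their range. Retnla, a secreted product of type 2 immunity, was highest in 500 ppm mouse 2 at 5.38, against 3.79 and 4.08 in the other two.

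**Figure D4:**
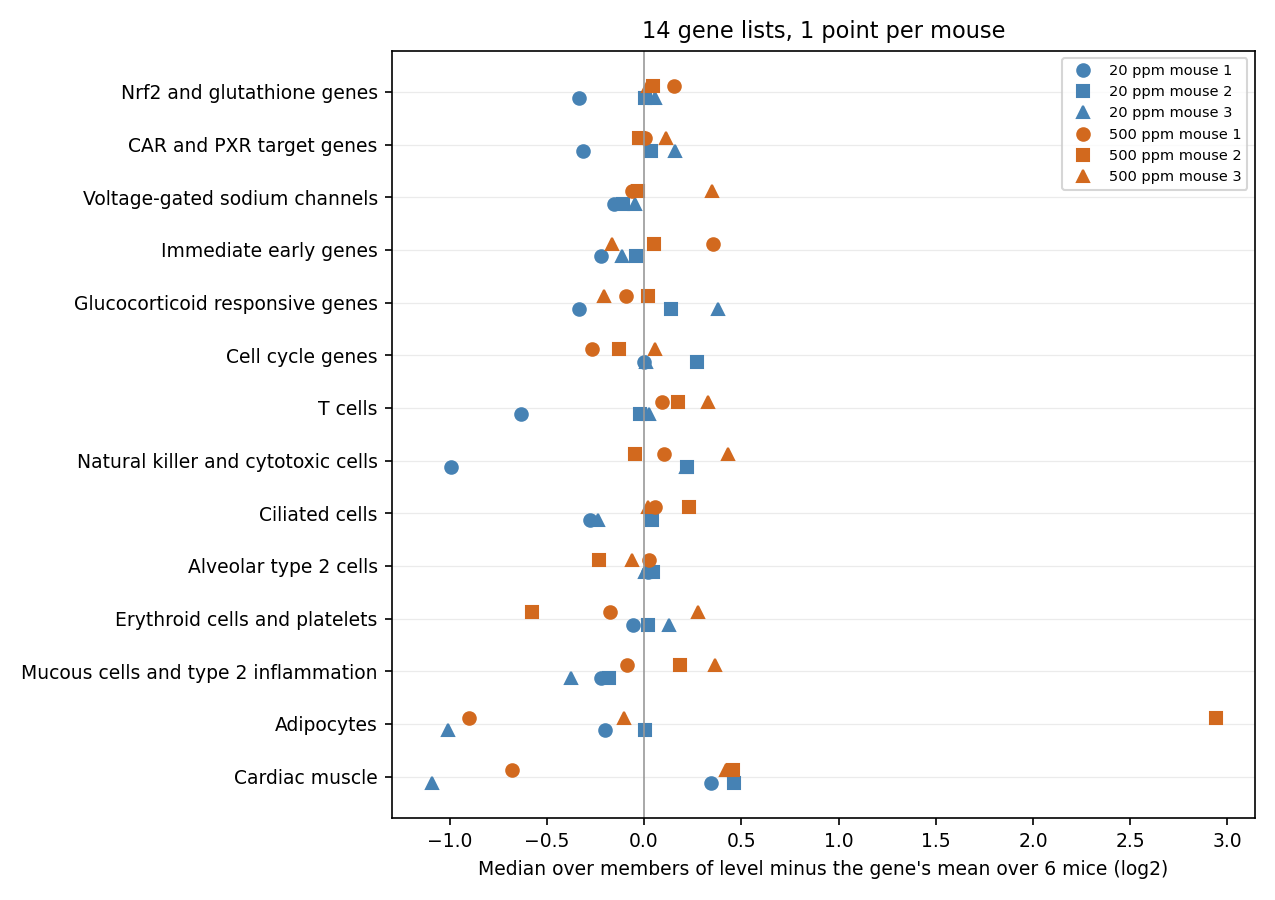
For 14 gene lists, the median over tested members of each gene's level minus its mean over the 6 mice (log2), 1 point per mouse. The adipocyte point of 500 ppm mouse 2, the natural killer point of 20 ppm mouse 1 and the cardiac muscle point of 20 ppm mouse 3 stand apart from the rest of their diets.

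Targets of CAR and PXR had no common direction. Cyp2b10, the standard target of CAR, read 6.19, 7.06 and 7.13 at 20 ppm and 6.75, 6.76 and 6.87 at 500 ppm, a difference of 0.00 ± 0.28 with a 95% interval of -0.68 to 0.69. A dimmer Cyp2b10 probe read 1.99, 0.87 and 0.63 against 0.30, 0.22 and 0.49, a difference of -0.83 ± 0.37 without overlap, and -0.41 without 20 ppm mouse 1, so the probes of this gene disagree. The CAR and PXR target list had 13 of 20 above 0 and a median of 0.03. That median was -0.22 with arrays centred on their medians and -0.08 without 20 ppm mouse 1. Of its genes 2 did not overlap, both higher, beside a background of 7.47%. Nr1i3, which encodes CAR itself, read -1.55, -1.32 and -1.33 against -1.09, -0.81 and -0.76 and differed by 0.52 ± 0.17. Cyp1a1, the target of the aryl hydrocarbon receptor, differed by -0.09 ± 0.24.

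Nrf2 and glutathione genes leaned higher, with 30 of 37 above 0, 7 wholly above and none wholly below beside backgrounds of 7.47% and 3.15%, and a median of 0.19. Without 20 ppm mouse 1 the median was 0.05, and with arrays centred on their medians it was -0.05. Gsta2, a glutathione S-transferase, read -0.93, -0.61 and -0.38 at 20 ppm and -0.34, -0.12 and -0.22 at 500 ppm, a difference of 0.41 ± 0.20 in which the groups met closely but did not overlap. Abcc1, which exports glutathione conjugates, read -0.64, -1.26 and -1.36 against -0.26, -0.40 and -0.21, a difference of 0.80 ± 0.23, the smallest p of the list. Gpx2, a glutathione peroxidase of epithelium, differed by 0.53 ± 0.25. Nqo1, the quinone reductase, read -1.89, -2.55 and -2.03 against -1.51, -1.86 and -2.14, a difference of 0.32 ± 0.26 with overlap, and Hmox1, heme oxygenase 1, went the other way by -0.56 ± 0.30.

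Voltage-gated sodium channels, the target of permethrin in nerve, were mostly dim in lung. Of 13 tested members 10 lay above 0 and the median was 0.16, but it was -0.08 with arrays centred on their medians and 0.00 without 500 ppm mouse 3, the array that reads dim probes high. Scn8a, the one channel gene whose groups did not overlap, read 2.56, 2.80 and 2.86 at 20 ppm and 2.46, 2.31 and 2.10 at 500 ppm, a difference of -0.45 ± 0.18. It was 1 of the 13 tested members, beside a background of 3.15% in the lower direction. Immediate early genes had 17 of 21 above 0, 4 wholly above beside a background of 7.47% and a median of 0.20, which was 0.029 without 500 ppm mouse 1. Without 500 ppm mouse 3 the median was 0.33 and 9 lay wholly above, beside a background that had itself risen to 13.4%. Centring arrays on their medians turned the list's median to -0.05. Jun, a subunit of AP-1, read 5.25, 5.40 and 5.27 against 6.07, 5.82 and 5.63 and differed by 0.53 ± 0.18. Nr4a2, an orphan nuclear receptor induced by many stimuli, read 0.26, 0.22 and 0.36 against 0.88, 0.77 and 0.64. Glucocorticoid responsive genes had 15 of 19 below 0 with no gene wholly apart, beside backgrounds of 7.47% higher and 3.15% lower. Their median was -0.21, or 0.05 without 20 ppm mouse 3 and -0.49 without 20 ppm mouse 1. Zbtb16, a strong glucocorticoid target, read 2.50, 3.15 and 2.98 against 1.48, 1.89 and 2.94 and differed by -0.77 ± 0.41.

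Interferon stimulated genes had a median of -0.11 with 2 of 27 wholly below beside a background of 3.15%, and with 1 mouse left out the median ran from -0.28 without 500 ppm mouse 2 to -0.02 without 500 ppm mouse 3. The median of heat shock chaperones was -0.09 with 1 of 18 wholly apart in each direction, beside backgrounds of 7.47% higher and 3.15% lower. Cholesterol synthesis genes had a median of 0.02, or -0.23 with arrays centred on their medians. Hsp90aa1, the inducible cytosolic Hsp90, read 6.19, 5.97 and 6.06 against 6.29, 6.41 and 6.38, while Hspa1a overlapped with a difference of -0.56 ± 0.46. Lncpint, a long noncoding RNA, differed by 0.22 ± 0.16. Ltb4r2, the low-affinity leukotriene B4 receptor, differed by -0.43 ± 0.37, and by -0.08 without 500 ppm mouse 3.

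Markers of tissues around the lung varied among mice within each diet. Adipocyte genes had a median of 0.91 over 11 tested members and 10 above 0, yet none separated the diets, and 10 of 11 were highest in 500 ppm mouse 2. Adipoq, the fat hormone adiponectin, read -0.98, -1.92 and -3.93 at 20 ppm and -4.49, 2.46 and -1.05 at 500 ppm, and Cfd, adipsin, read 3.15, 2.76 and -1.16 against -1.17, 6.79 and 2.91. The summed linear signal of the list, in units of the 75th percentile, was 10.3 to 27.2 in the 20 ppm mice and 230 in 500 ppm mouse 2. Without that mouse the median was -0.04. Its share in the mucous cell values of the same mouse was not tested.

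Liver genes varied in the same way, in a list added after the values were seen. Of 23 tested hepatocyte genes 22 lay below 0, the median was -1.54 and none separated the diets: 20 were highest in 20 ppm mouse 3 and 20 lowest in 500 ppm mouse 2. Alb, serum albumin, read 3.24, 2.70 and 4.83 at 20 ppm and 3.39, -0.48 and 1.60 at 500 ppm. The summed signal was 38.7, 32.3 and 115 against 50.3, 10.3 and 21.0. Ces3a, a carboxylesterase, moved with these genes at -1.52, -2.11 and 0.46 against -1.49, -5.66 and -2.63, while the carboxylesterase list that holds it had a median of 0.28 and 7 of 11 members above 0, and a median of 0.0063 without 20 ppm mouse 1. Cardiac muscle genes were lowest in 20 ppm mouse 3 for 13 of 20 members, with summed signals of 165, 208 and 64.1 at 20 ppm against 94.3, 206 and 188 at 500 ppm and a median difference of 0.11, or -0.14 with arrays centred on their medians and -0.29 without 20 ppm mouse 3. Whether these markers have a part in any lung gene's difference was not tested.

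**Figure D5:**
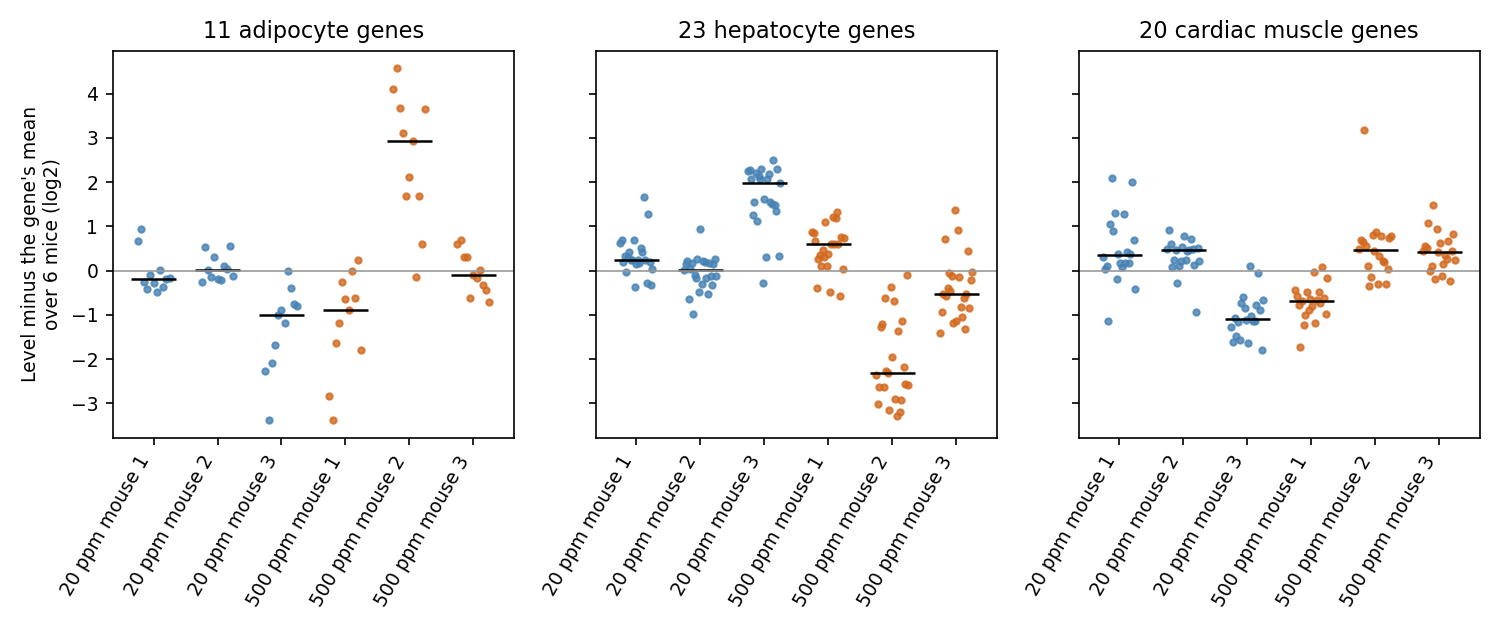
Level minus the gene's mean over the 6 mice (log2) for adipocyte, hepatocyte and cardiac muscle genes, 1 point per gene and mouse with the median as a bar. Fat genes stand high in 500 ppm mouse 2, liver genes high in 20 ppm mouse 3 and low in 500 ppm mouse 2, and heart genes low in 20 ppm mouse 3.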

How the data were processed

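Total RNA from lung was hybridised to 1-colour (Cy3) Agilent arrays, per the labels' protocols. The authors deposited scanner output of Agilent Feature Extraction 10.7.3.1, per the file headers, in which the processed signal is a background-subtracted intensity. Another deposited column of these files says, as 0 or 1, whether a spot is well above background. The authors' deposited table of log2 values was used as an alternative only: it equalled log2 processed signal minus a constant for each array, its column medians ran from -2.95 to -1.94, and how the constant was chosen is not given in the sources used here.

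Levels are log2 processed signals minus the array's 75th percentile, with control and outlier spots left out and spots of a probe averaged. Probes well above background in at least 0.5 of their spots on all 3 arrays of either diet were tested, and 9 of them lacked a value on 1 array. RefSeq accessions named 34675 of 56605 probes and gave 23785 symbols. The test was limma 3.58.1 (lmFit and eBayes, two-sided, R 4.3.3) on the 6 arrays, with Benjamini-Hochberg adjustment over all tested probes and a threshold of 0.05, and SE is its moderated standard error. "Wholly above" or "wholly below" means that the 500 ppm mice all lay on that side of the 20 ppm mice.

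A gene is given by its brightest tested probe. The naming rule took, since none passed the threshold, the 12 genes of smallest unadjusted p in each direction whose mice did not overlap, without bare model names. From each gene list it took the first 2 measured members and the one of smallest p. It always took Cwc22, Nqo1, Gsta2, Cyp1a1, Cyp2b10, Cyp2f2, Scgb1a1, Sftpc, Foxj1, Lyz2, H2-DMa, Ltb4r2 and Lncpint. Other genes named were chosen after their values were seen. The members, the rule and the lists were chosen with earlier results of these data known.

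Slides were read from the file headers. The labels call the samples biological replicates and say nothing of cages or RNA batches, so p-values measure the spread between these arrays, and their number limits the precision. The procedure was tested on simulated data. Alternatives covered background correction, scaling, filters, probes per gene, blocks, weights and arrays left out.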

Additional observations from a re-analysis of the deposited data

How the results depend on the processing

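No probe was called in the comparison of 3 against 3 mice under normexp background correction, quantile normalization, the deposited values, either filter on dim probes, 1 value per gene, all 15 arrays in the fit, slide as a fixed or random block, the trend setting, a further minimum difference of 1, any 1 array left out, or both 20 ppm mouse 1 and 500 ppm mouse 3 left out. With 1 array left out in turn, 1063 to 2150 probes had an unadjusted p under 0.05. Centring arrays on their medians called 103, of which 13 were higher and 90 lower. There limma's prior was 132 degrees of freedom against 2.16, and the unadjusted split was 713 higher and 1595 lower against 1079 and 320. Quantile normalization gave 995 and 664, and normexp 601 and 477. Array weights called 1, the AK145290 probe, with an adjusted p of 0.0186. Without 500 ppm mouse 3, array weights called 1 as well, and median centring called 0. The alternatives for the comparison without the array, and a minimum mean level of -1 (0 of 18435 called), were added after the data were seen.

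A replicate block called 0 in the comparison of 6 arrays, with 1432 probes at an unadjusted p under 0.05. Without 500 ppm mouse 3 the replicate block called 914, 138 higher and 776 lower, with 1 residual degree of freedom and an infinite prior shared among all probes. Deviations of same-numbered mice correlated by 0.016, 0.12 and -0.0079, and not every mouse correlated best with its own number. Whether same-numbered mice shared anything beyond the number is not given in the labels and cannot be settled by these correlations. In the block of 6 arrays each number is present in both diets. For probes with values on all 6 the difference is then that of the main fit, and no sign could change.

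Of 92 genes and probes followed here, H2-Aa not counted, 82 kept their sign in all 19 settings, the 24 named by rank among them. The filters on dim probes, the fit of all 15 arrays, the replicate block and the trend setting leave a probe's difference as it was. The fixed slide block gives the same differences as leaving out 500 ppm mouse 3. The 24 were chosen for groups that do not overlap, so leaving arrays out could not turn their signs. In some setting 15 passed the threshold, all of them with median centring, and AK145290 with array weights too. The sign turned for Cyp2b10 with quantile normalization (-0.067), median centring (-0.24), the fixed (-0.035) and random (-0.0081) slide block, array weights (-0.29) and without both 20 ppm mouse 1 and 500 ppm mouse 3 (-0.34). Cyp2f2 gave -0.012, -0.19, -0.16 and -0.17 with quantile normalization, median centring, weights and both mice left out. Foxj1 gave 0.078 and Klrb1c -0.33 with weights, and 0.12 and -0.47 without both mice. Scgb1a1 gave 0.013 with normexp and 0.039 with quantile normalization, Lncpint -0.024 with median centring and Cyp1a1 0.039 with the fixed slide block. With 1 array left out in turn the ranges were -0.30 to 0.17 for Cyp2b10, -0.17 to 0.26 for Cyp2f2, -0.20 to 0.058 for Foxj1, -0.22 to 0.59 for Klrb1c, -0.093 to 0.082 for Pcna, -0.23 to 0.10 for Scgb1a1, -0.71 to 3.27 for Cfd, -0.27 to 0.068 for Cyp1a1 and -0.50 to 2.98 for Adipoq. Of 43 lists, 33 changed the sign of their median in at least 1 setting. The causes of these changes of sign were not tested. Dim probes had the wider 95% intervals: 51.5% of probes below -2 and 95.3% of those at 0 and up had one of under 1 to either side. Below -4 the median reach was 1.36, and 0.66 without 500 ppm mouse 3, against 0.48 and 0.53 at 2 and up.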
